A study of Mus musculus with 4 samples.

Results

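Protein phosphatase 1 (PP1) inhibitor genes of the Ppp1r14 and Ppp1r1 families, and the genes of the PP1 catalytic subunits, were examined in embryonic mouse cerebral cortex taken at embryonic day 15 (E15). They were taken by symbol from the gene table: 8 of the 9 genes named were among its 13289 genes (Ppp1r14a, Ppp1r14b, Ppp1r14c, Ppp1r1a, Ppp1r1b, Ppp1ca, Ppp1cb and Ppp1cc), all 8 passed the filter on low counts, and Ppp1r14d was not analysed here. The set was built around Ppp1r14c because of its difference between the groups compared here. The differences between groups of these genes are therefore given as a description. Their estimates and calls come from a fit to all genes and are not read as tests of them.

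The study sequenced polyadenylated RNA from 2 control libraries, titled WT, and 2 Lhx2 cKO libraries, a label read as conditional knockout of the LIM-homeodomain factor Lhx2. The allele, the Cre driver, the strain and the number of embryos behind a library were not given in the labels. Nothing says that replicates came from separate litters, so p-values measure only the spread between these libraries. Total counts ranged from 22294237 to 24609627 per library, and 3 counts, taken as the detection floor, correspond to 0.122 to 0.135 CPM, a count scaled to library size; this floor covers counting error only. Lhx2 itself measured 316 and 287 CPM in control against 239 and 247 CPM in Lhx2 cKO, so the libraries labelled Lhx2 cKO kept 80.7% of its level (-0.31 on the log2 scale, SE 0.098, edgeR quasi-likelihood adjusted p 0.0191). Its call was lost without control 1 (adjusted p 0.176), Lhx2 cKO 1 (0.102) or Lhx2 cKO 2 (0.0538), each in the edgeR fit. The part of Lhx2 that the allele removes was not given, so counts over the whole gene are a limited check of the labels.

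PP1 is a serine/threonine phosphatase whose catalytic subunit works in complexes with many regulatory proteins, which direct it to substrates or block it. The Ppp1r14 proteins are small inhibitors that block PP1, in particular the form that acts on myosin light chain, once protein kinase C or related kinases have phosphorylated them: Ppp1r14a is CPI-17, Ppp1r14b is PHI-1, Ppp1r14c is KEPI and Ppp1r14d is GBPI. The Ppp1r1 proteins, inhibitor-1 (Ppp1r1a) and DARPP-32 (Ppp1r1b), block PP1 once protein kinase A has phosphorylated them, and DARPP-32 is best known from striatal neurons that receive dopamine.

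Stretches upstream of the 3 measured Ppp1r14 genes are printed because the family's members share a function while only one of them differed widely between groups. They come from the RefSeq promoter windows of build GRCm38.p6, from 250 bases before to 50 after each annotated start, and are printed only up to the first start that RefSeq or GENCODE M21 annotates. The submitters' processing notes name build mm39, so these coordinates are not to be read against the authors' alignment. Capitals mark ATTA, the core that homeodomain proteins recognise, and GGGCGG, the GC box, each on either strand (read as TAAT and CCGCCC on the other).
Ppp1r14c, chr10:3365900-3366056, plus strand: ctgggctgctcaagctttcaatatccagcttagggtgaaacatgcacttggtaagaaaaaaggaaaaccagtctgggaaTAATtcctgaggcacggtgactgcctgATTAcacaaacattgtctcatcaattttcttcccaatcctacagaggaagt
Ppp1r14b, chr19:6974798-6974967, plus strand: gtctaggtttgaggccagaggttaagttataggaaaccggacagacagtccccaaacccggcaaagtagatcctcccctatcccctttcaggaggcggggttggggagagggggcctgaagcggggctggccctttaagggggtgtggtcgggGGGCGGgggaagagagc
Ppp1r14a, chr7:29289070-29289307, plus strand: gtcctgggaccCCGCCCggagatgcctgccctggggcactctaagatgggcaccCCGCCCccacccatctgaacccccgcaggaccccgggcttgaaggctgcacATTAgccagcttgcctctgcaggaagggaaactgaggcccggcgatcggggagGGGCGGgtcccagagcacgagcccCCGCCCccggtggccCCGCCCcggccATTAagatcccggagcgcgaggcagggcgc
The Ppp1r14c window was the poorest in GC of the 3, at 52.0%, close to the median of 52.7% over the 32851 windows of the table. It held 8 CG dinucleotides, 2 ATTA matches and 0 GC boxes. The Ppp1r14b window was at 69.3% GC with 23 CG dinucleotides, 0 ATTA matches and 5 GC boxes, of which 1 lies in the printed stretch. The Ppp1r14a window was at 71.3% GC with 25 CG dinucleotides, 2 ATTA matches and 5 GC boxes. ATTA was found in 58.0% of all windows and the GC box in 35.7%. The palindrome TAATTA, which LIM-homeodomain proteins bind and which contains ATTA on both strands, was found in 5.29% of all windows and in 0 of these 3. The window of Ppp1r14d, whose expression was not analysed here, was at 53.3% GC with 1 CG dinucleotide, 0 ATTA matches and 0 GC boxes. A GC content near the median and a lack of GC boxes were thus not particular to Ppp1r14c in the family. A match is a description of letters and not a binding site. Of the 9 genes, 6 had a window in the table; Ppp1r1a, Ppp1r1b and Ppp1ca had none.

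Ppp1r14c (ENSMUSG00000040653.7) was several-fold higher in Lhx2 cKO, while each of the other inhibitors and the catalytic subunits lay within a much narrower range around its control level. Control 1 and control 2 held Ppp1r14c at 9.82 and 9.40 CPM, against 64.5 and 69.8 CPM in Lhx2 cKO 1 and Lhx2 cKO 2. Behind these values stood 238 and 235 reads in control, and 1467 and 1604 reads in Lhx2 cKO, far above the detection floor. Both Lhx2 cKO libraries were far above both control libraries, and the libraries within each group were close together. The group means were 9.61 ± 0.292 CPM in control and 67.1 ± 3.78 CPM in Lhx2 cKO (SD, n = 2). The fit gave 2.80 on the log2 scale (SE 0.118), which is 6.99-fold (95% interval 5.92 to 8.24). By this estimate it stood at place 12 of the 13288 genes tested, highest first. Leaving out any one library kept the log2 fold change between 2.74 and 2.86. The authors' deposited table gives a log2 fold change of 2.80 for Ppp1r14c. In GENCODE M21, 29.2% of the exonic bases of Ppp1r14c overlap Gm26752 on the opposite strand. Gm26752 was not analysed here and the strand setting of the counting is not given, so reads from that stretch cannot be assigned to either gene.

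**Figure D1:**
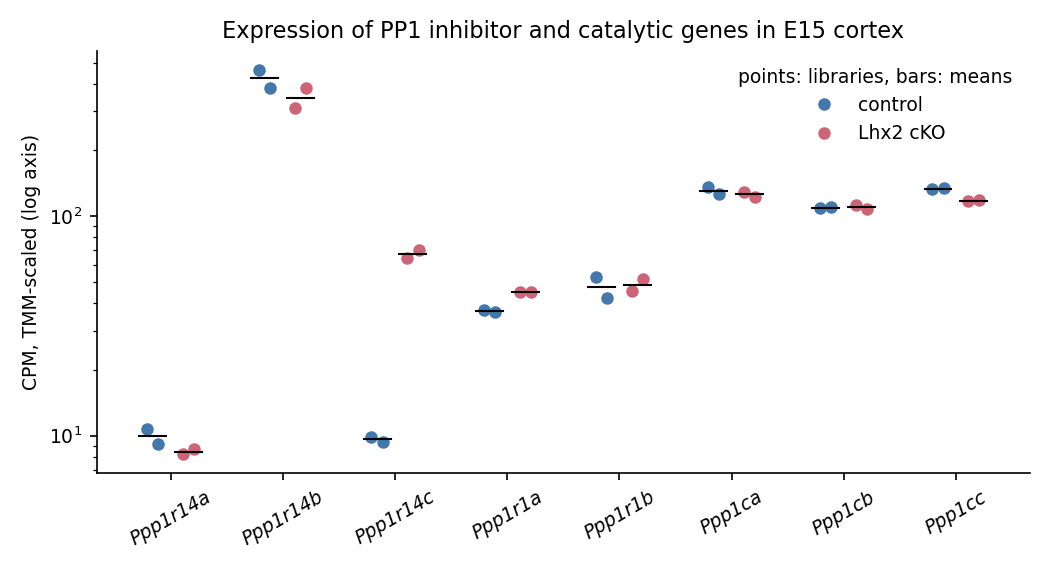
CPM of the 8 genes (y axis, log scale, scaled with TMM) in each library, control in blue and Lhx2 cKO in red, with black bars at the group means. Ppp1r14c moves from 9.82 and 9.40 CPM in control to 64.5 and 69.8 CPM in Lhx2 cKO, and no other gene shows a gap of that size.

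Ppp1r14b, the most abundant of the inhibitors, was lower in Lhx2 cKO by a small amount. Its levels were 463 and 384 CPM in control against 310.1 and 381 CPM in Lhx2 cKO. The groups did not overlap, but Lhx2 cKO 2 was only just below control 2, and the spread within each group was wide. The log2 fold change was -0.29 (SE 0.109, 95% interval -0.51 to -0.07), and it was -0.17 without control 1 and -0.15 without Lhx2 cKO 1. Of the 50-base stretches of its transcripts, 21.7% are also found in other annotated genes, with Gm7332 first, so its counts may be shared with near-identical copies.

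Ppp1r14a, the founding member known from smooth muscle, was among the least abundant of the 8 genes. Control libraries held it at 10.7 and 9.20 CPM, and Lhx2 cKO libraries at 8.26 and 8.66 CPM. All 4 libraries lay close together, with the Lhx2 cKO libraries just below the control libraries. The log2 fold change was -0.23 (SE 0.179), with a 95% interval from -0.60 to 0.13 that holds no change as well as a moderate fall.

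Of the inhibitors that protein kinase A controls, Ppp1r1a was slightly higher in Lhx2 cKO and Ppp1r1b was near its control level. Ppp1r1a was at 37.3 and 36.6 CPM in control and at 45.3 and 45.1 CPM in Lhx2 cKO. Replicates were nearly equal and the groups did not overlap, with a log2 fold change of 0.29 (SE 0.104, 95% interval 0.08 to 0.50). Ppp1r1b was at 52.6 and 42.2 CPM in control and at 45.4 and 51.6 CPM in Lhx2 cKO. Its groups overlapped, and the log2 fold change was 0.03 (SE 0.109, 95% interval -0.19 to 0.25). Overlap with 1700003D09Rik on the opposite strand covers 15.7% of the exonic bases of Ppp1r1b.

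The catalytic subunits, which carry out the dephosphorylation, differed little between groups. Ppp1ca was at 135 and 126 CPM in control and at 129 and 122 CPM in Lhx2 cKO, with overlapping groups and a log2 fold change of -0.06 (95% interval -0.25 to 0.13). Ppp1cb was at 108 and 110 CPM in control and at 112 and 108 CPM in Lhx2 cKO, again overlapping, with a log2 fold change of 0.01 (95% interval -0.18 to 0.20). Ppp1cc was at 133 and 134 CPM in control and at 117 and 118 CPM in Lhx2 cKO. Here the replicates were almost equal and the groups stood apart by a small step, with a log2 fold change of -0.18 (95% interval -0.37 to 0.004). These intervals bound the differences and do not show equal levels. Ppp1cc shares 40.0% of its 50-base stretches with other annotated genes, Ppp1ccb first, and Ppp1cb shares 16.4% with Gm43312. Gm43312 overlaps Ppp1cb itself on the same strand, over 17.5% of the exonic bases of Ppp1cb, so reads from there cannot be assigned to either gene. Rad9a and another gene on the opposite strand overlap 16.5% of the exonic bases of Ppp1ca.

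By an adjusted p under 0.05 over the 13288 genes tested (Benjamini-Hochberg, edgeR's quasi-likelihood test), 2 of the 8 genes were called higher (Ppp1r14c and Ppp1r1a), 1 lower (Ppp1r14b), and 5 were not called. Over all genes 11.6% were called higher and 9.17% lower, or 20.8% in either direction. For 5 of the 8 genes the groups did not overlap, against 59.3% of all genes. Since Ppp1r14c was chosen from this contrast, nothing is read from these counts. The calls of Ppp1r1a and Ppp1r14b were not stable: that of Ppp1r1a was lost with library totals, with DESeq2 and without any one of the 4 libraries, and that of Ppp1r14b under the minimum mean count of 50, with DESeq2, without control 1 and without Lhx2 cKO 1. In the authors' deposited table Ppp1r1a is at an adjusted p of 0.0599 and Ppp1r14b at 0.0364. Without Ppp1r14c the median log2 fold change of the other 7 genes was -0.06, beside 0.003 over all genes tested, and the widest of these 7 was 0.29 in size.

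**Figure D2:**
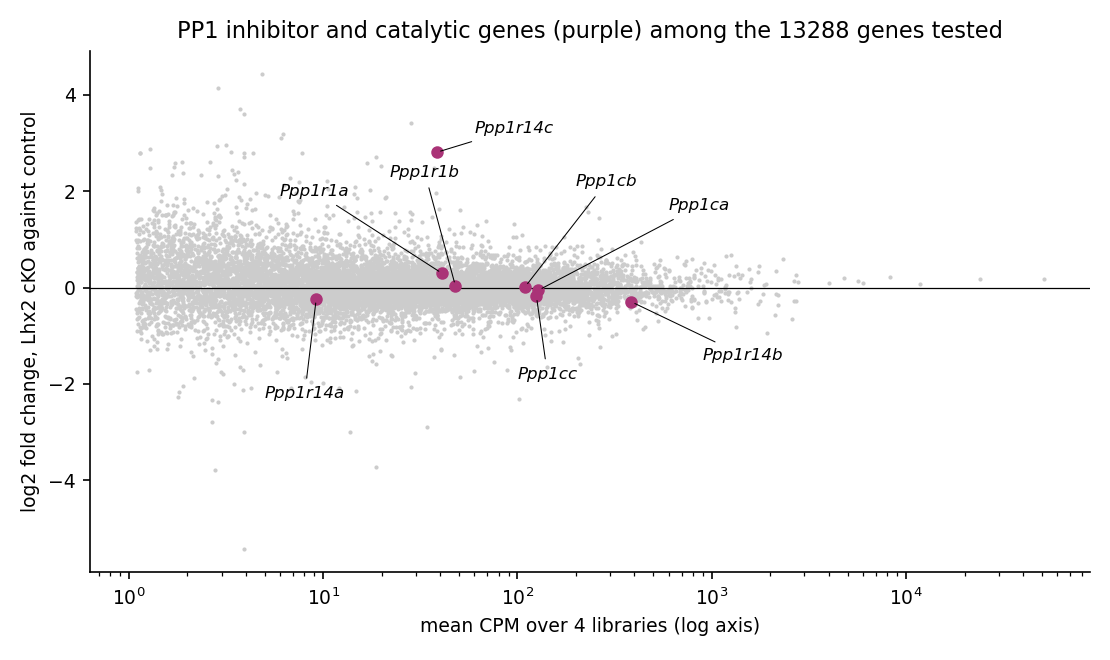
Log2 fold change in Lhx2 cKO relative to control (y axis) against the mean CPM over the 4 libraries (x axis, log scale) for the 13288 genes tested, in grey, with the 8 PP1 genes in purple. Ppp1r14c lies at 2.80, above the cloud of genes of its abundance, and the other 7 lie between -0.29 and 0.29.

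Levels of different genes were compared as RPKM, which is CPM divided by the deposited gene length in kilobases, scaled with TMM. For each of the 8 genes this length equals its exonic bases in GENCODE M21 pooled over transcripts, such as 10913 for Ppp1cb and 2520 for Ppp1ca. Where the expressed transcripts are shorter than the pooled exons, RPKM is too low, and the SDs below do not cover this. In control the order from the top was Ppp1r14b at 277 ± 36.3, Ppp1ca at 51.8 ± 2.66, Ppp1cc at 38.9 ± 0.132, Ppp1r1a at 28.3 ± 0.385, Ppp1r1b at 16.2 ± 2.50, Ppp1cb at 9.98 ± 0.0761, Ppp1r14a at 7.29 ± 0.786 and Ppp1r14c at 3.67 ± 0.111 RPKM (SD, n = 2). Ppp1r14c was last in each control library, and no neighbours in this order overlapped between libraries. In Lhx2 cKO Ppp1r14c was at 25.7 ± 1.44 RPKM (SD, n = 2) and took place 5 of 8 in each library, above Ppp1r1b at 16.6 ± 1.49 and below Ppp1cc at 34.3 ± 0.318. Ppp1r1a, at 34.6 ± 0.0926 RPKM (SD, n = 2), differed from Ppp1cc by no more than about the spread between replicates. The places of Ppp1r14c were the same with library totals in place of TMM and with either library of a group left out. Of all genes measured, 61.5% were at or above the level of Ppp1r14c in control, and 14.2% in Lhx2 cKO.

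**Figure D3:**
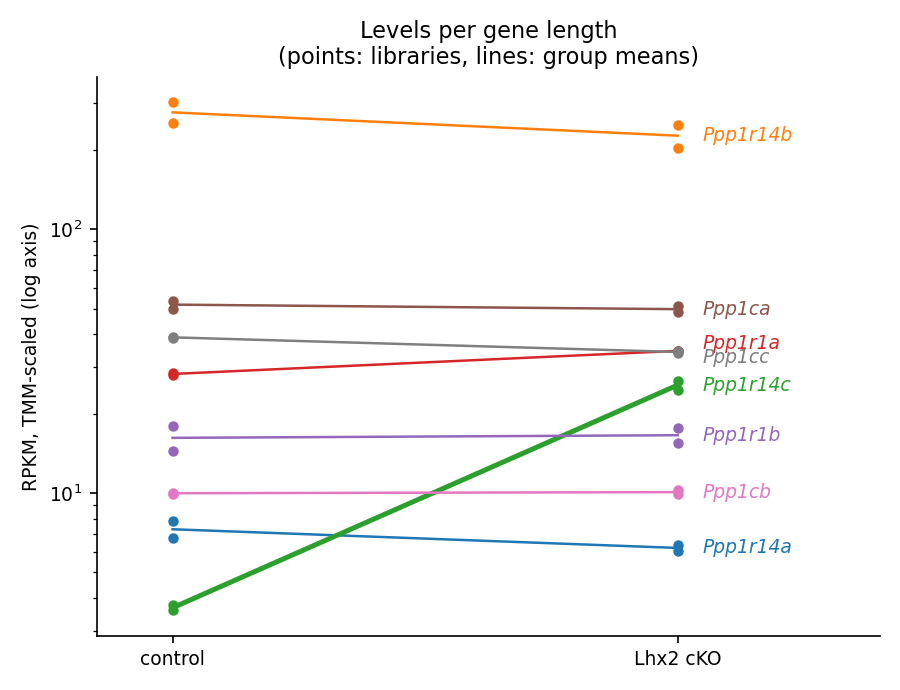
RPKM of the 8 genes (y axis, log scale) in control and Lhx2 cKO, with points for libraries and lines joining group means. The line of Ppp1r14c runs from the lowest place in control, 3.67, to place 5 in Lhx2 cKO, 25.7, crossing those of Ppp1r14a, Ppp1cb and Ppp1r1b.

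Although Ppp1r14c was higher, Ppp1r14b remained the predominant transcript of its family. Ppp1r14b made up 96.3% and 96.1% of the summed RPKM of the 3 Ppp1r14 genes in control and 86.9% and 88.3% in Lhx2 cKO. Ppp1r14c made up 1.19% and 1.37% in control against 10.5% and 9.44% in Lhx2 cKO, while Ppp1r14a stayed between 2.24% and 2.58% in all 4 libraries. Per length, Ppp1r14b was 80.8 and 70.1 times Ppp1r14c in control and 8.25 and 9.35 times in Lhx2 cKO. The ratio of Ppp1r14c to Ppp1r14a turned over, from 0.478 and 0.534 in control to 4.08 and 4.21 in Lhx2 cKO.

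The summed transcript level of the inhibitors was mostly that of Ppp1r14b. Neither this sum nor its ratio to the catalytic genes can show whether the total followed Ppp1r14c. Between replicates the SD of Ppp1r14b was 36.3 RPKM in control and 32.8 RPKM in Lhx2 cKO (n = 2). Each SD was above the whole level of Ppp1r14c in Lhx2 cKO, 25.7 RPKM. The 5 inhibitor genes together were at 361 and 305 RPKM in control and at 284 and 335 RPKM in Lhx2 cKO, overlapping between groups, with Ppp1r14b the bulk of each sum. The 3 catalytic genes together were at 102.4 and 98.97 RPKM in control and at 95.5 and 92.7 RPKM in Lhx2 cKO. The ratio of inhibitor to catalytic RPKM was 3.53 and 3.08 in control against 2.98 and 3.61 in Lhx2 cKO, again overlapping. Set against the catalytic genes alone, Ppp1r14c was 3.66% and 3.63% of their summed RPKM in control and 25.8% and 28.8% in Lhx2 cKO. Within the catalytic sum, Ppp1ca held 50.4% to 53.6%, Ppp1cc 35.6% to 39.4% and Ppp1cb 9.69% to 10.7% over the 4 libraries. These are shares of transcript and say nothing of protein or of phosphorylation, on which the inhibitors depend.

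**Figure D4:**
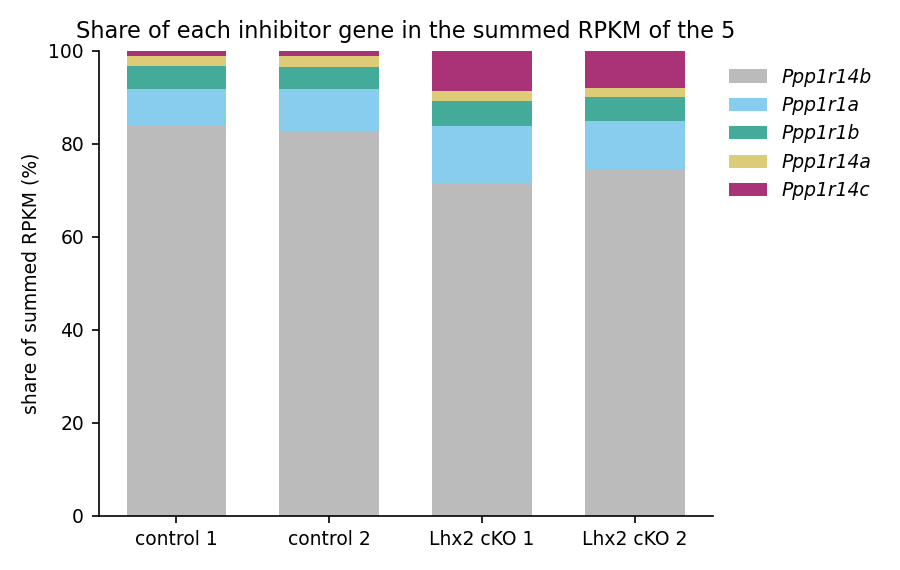
Share of each of the 5 inhibitor genes in their summed RPKM (y axis, percent) in each library (x axis). Ppp1r14b fills most of each bar, and Ppp1r14c goes from 1.04% and 1.18% in the control libraries to 8.67% and 7.97% in the Lhx2 cKO libraries.

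Genes that work with these proteins were taken from 5 lists, and 16 of the 70 measured genes were called (22.9%), 7 higher and 9 lower, close to the 20.8% over all genes. Their median log2 fold change was -0.04. To set beside the counts of each list, 11.6% of all genes were called higher and 9.17% lower. The kinases able to phosphorylate Ppp1r14 proteins had 2 of 17 called higher, 1 lower and a median of 0.02. Prkce, a calcium-independent protein kinase C, rose from 110.1 and 117 CPM in control to 207 and 196 CPM in Lhx2 cKO (log2 fold change 0.83, SE 0.095, edgeR adjusted p 6.53e-09). Its control and Lhx2 cKO libraries did not overlap. Prkca was at -0.07, Rock1 at -0.16, Rock2 at -0.03 and Ilk at 0.10 on the log2 scale, and none of these was called.

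Myosin phosphatase and non-muscle myosin, the target side of Ppp1r14 proteins, had 1 of 12 genes called and a median log2 fold change of -0.07. Myh9, a non-muscle myosin heavy chain, fell from 94.6 and 85.8 CPM to 70.9 and 75.0 CPM (-0.31, SE 0.098, edgeR adjusted p 0.0209), a call lost without control 1 (-0.25) or Lhx2 cKO 1 (-0.27). The targeting subunit Ppp1r12a was at -0.16 and the regulatory light chain Myl9 at 0.03, and neither was called.

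Among genes that act on the Ppp1r1 proteins, 2 of 16 were called higher, 0 lower, with a median log2 fold change of 0.05. Prkacb, a catalytic subunit of protein kinase A, rose from 100.3 and 114 CPM to 136 and 147 CPM (0.40, SE 0.096, edgeR adjusted p 0.00187). Prkar1b, a regulatory subunit, was at 0.38 (edgeR adjusted p 0.00654). The call of Prkacb was lost without control 1 (0.30), and that of Prkar1b without control 2 (0.21) or Lhx2 cKO 2 (0.29). Prkaca was at -0.06, Cdk5 at 0.06 and the calcineurin gene Ppp3ca at 0.003, and none of these was called.

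PP1 targeting subunits, which bring the phosphatase to its substrates, had 3 of 21 genes called higher and 6 lower. Over all genes 11.6% were called higher and 9.17% lower. The median log2 fold change of the 21 was -0.16. Knl1, a kinetochore protein that docks PP1, fell from 9.16 and 9.44 CPM to 2.72 and 4.57 CPM (-1.35, SE 0.227, edgeR adjusted p 1.63e-05). Rif1, which brings PP1 to replication origins, was at -0.58 (edgeR adjusted p 3.29e-05). Phactr2 and Phactr1, members of an actin-binding family, moved apart, at -0.98 (edgeR adjusted p 2.36e-04) and 0.47 (edgeR adjusted p 2.36e-04). Without control 2 only 1 of these 21 genes was called higher. Of the 4 measured inhibitors and interactors outside the families above, Ppp1r8 (NIPP1) was called lower at -0.30 (edgeR adjusted p 0.0316), lost with DESeq2 and in 3 of the 4 fits with 1 library left out (without control 2, Lhx2 cKO 1 or Lhx2 cKO 2), while Ppp1r7 at -0.22, Ppp1r2 at -0.18 and Ppp1r11 at 0.11 were not called. Ppp1r1c and Ppp1r17 were not analysed here.

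**Figure D5:**
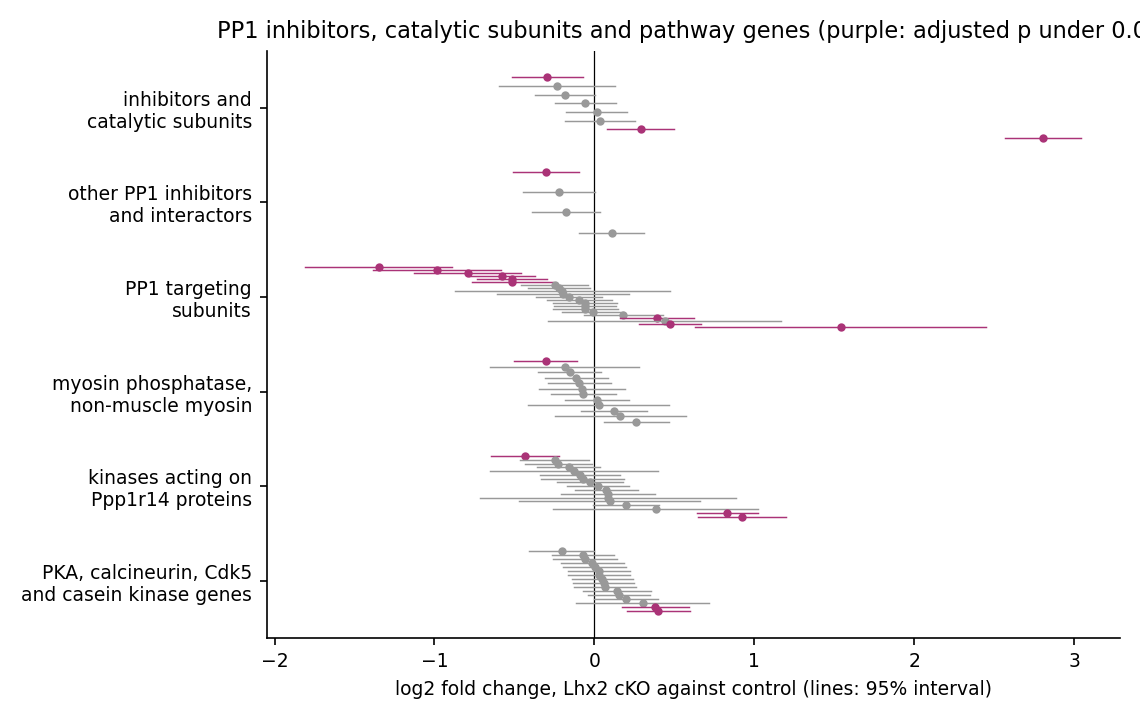
Log2 fold changes in Lhx2 cKO relative to control (x axis) with 95% intervals for the 8 PP1 genes and the 70 genes of the 5 lists (y axis, 1 row per gene), purple where the adjusted p was under 0.05. Ppp1r14c at 2.80 is the point farthest to the right, and the next is Ppp1r3d at 1.54, which has a wide interval.

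The 4 genes whose profile over the 4 libraries was nearest to that of Ppp1r14c, by Euclidean distance between log2 CPM values centred on each gene's mean, were Egfr (distance 0.041), Xaf1 (0.070), Ddx60 (0.21) and Tacr1 (0.26). Egfr, the epidermal growth factor receptor, was at 2.02 and 1.88 CPM in control and at 13.2 and 14.0 CPM in Lhx2 cKO. Xaf1 and Ddx60 are interferon-induced genes, and Tacr1 encodes the substance P receptor. In the control libraries Xaf1 rested on 7 and 7 reads, Ddx60 on 17 and 15 and Tacr1 on 27 and 21. With so few reads the distances of these genes are uncertain. Per length Egfr was far less abundant, at 1.17 and 1.23 RPKM in Lhx2 cKO against 24.6 and 26.7 RPKM for Ppp1r14c. With a mean of at least 5 CPM required, only Egfr of these 4 remained, followed by Aldh1l1 (0.31), Dhrs3 (0.38), Adcy2 (0.46) and Bst2 (0.47). With 4 libraries in 2 groups this measure mostly sorts genes by the size of their change.

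Markers of several cell types moved between the same groups of libraries. In bulk tissue fewer cells of a type and less RNA per cell cannot be told apart. To set beside the counts of these lists and those below, 11.6% of all genes were called higher and 9.17% lower. Microglia markers had 8 of 10 called higher and 1 lower (Tmem119, log2 fold change -1.04), with summed levels of 124 CPM in both control libraries and 241 and 268 CPM in Lhx2 cKO. Oligodendrocyte precursor markers, which include Egfr, had 5 of 6 called higher, from 46.9 and 53.6 to 87.9 and 96.5 CPM. Of these 5, Cspg4 is also in the smooth muscle and pericyte list. It held 26.5 and 31.2 CPM of the control sums. Its log2 fold change was 0.38, and between 0.26 and 0.50 with 1 library left out. Endothelial markers had 5 of 7 called higher, from 135 and 168 to 214 and 248 CPM, with 2 called without control 1 and 3 without Lhx2 cKO 2. Intermediate progenitor markers had 4 of 6 called lower, from 549 and 532 to 315 and 324 CPM. Radial glia markers had 4 of 10 called lower and 1 higher, from 837 and 885 to 805 and 781 CPM. The call of the 1 higher was kept in 6 of the 8 alternatives with all libraries. Nes, among the 4 lower, had a log2 fold change of -0.40, and between -0.55 and -0.24 with 1 library left out. Neuron markers had 2 of 8 called higher and 2 lower, from 4697 and 4626 to 4808 and 5086 CPM. Neurod6, among the 2 lower, was at -0.32, and between -0.37 and -0.28 with 1 library left out. The part of these shifts in the level of Ppp1r14c was not tested.

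For smooth muscle cells and striatal neurons, from which related inhibitors are known, and for meningeal fibroblasts, markers were partly missing from the table. Of 10 smooth muscle and pericyte markers, 5 were not analysed here (Acta2, Tagln, Myh11, Cnn1 and Des), and the other 5 summed to 168 and 179 CPM in control and 163 and 175 CPM in Lhx2 cKO, with 1 called higher and 1 lower, each lost with some libraries left out. Of 5 meningeal fibroblast markers 3 were measured, and their sum was 46.8 and 45.5 CPM in control and 29.0 and 27.6 CPM in Lhx2 cKO. Col1a1 alone was called, lower at a log2 fold change of -3.00, while Col1a2 at 0.25 and Col3a1 at 0.20 were not called. Of 10 striatal neuron markers 7 were measured, with 3 called higher and 1 lower and sums of 424 and 406 CPM in control and 351 and 341 CPM in Lhx2 cKO. Meis2 held most of that sum, and the median log2 fold change of the 7 was 0.32, opposite in sign to the change of the sum. Penk rose to 6.55 and 6.92 CPM from 1.81 and 2.52 CPM and Meis2 fell to 212 and 208 CPM from 311 and 308 CPM, while Ppp1r1b, the striatal inhibitor, overlapped between groups.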

How the data were processed

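RNA-seq counts of 4 E15 cortex libraries (2 control, 2 Lhx2 cKO, grouped by title) were analysed. The deposited table holds raw read counts per gene. The submitters' processing notes name Trim Galore, Subread, featureCounts, edgeR and the build mm39, while versions, strand setting and annotation are not given in the sources used here. The same table has the authors' log2 fold changes and mean log2 CPM, their p-values and adjusted p-values, the -log10 of the adjusted p-values as deposited, and the gene length in bases. The lowest row total was 102 counts.

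Of the 13289 genes, the 13288 that passed filterByExpr (minimum of 10 counts) were fitted with edgeR 4.0.16 in R 4.3.3. The fit used TMM, glmQLFit and glmQLFTest, two-sided, with no covariates. Benjamini-Hochberg adjustment was over the 13288 genes tested, with a threshold of 0.05. SEs are the absolute log2 fold change over the square root of F, and 95% intervals use the fit's degrees of freedom. CPM and RPKM use TMM-scaled totals, and RPKM the deposited length. The fit was tested on simulated data. Replicates differed by more than sampling noise allows, with chi-square ratios of 13.9 (control) and 14.3 (Lhx2 cKO) per degree of freedom. Replicate numbers do not pair the libraries in the labels.

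The members, the 5 pathway lists and 9 marker lists were chosen with earlier results of these data known. Named genes were Lhx2, all members, up to 4 called genes of smallest p per list, every gene of lists of 6 or fewer needed to account for them, and the 5 nearest profiles to Ppp1r14c (prior count 0.5, mean of at least 1 CPM, provisional names left out). A few genes that this rule names are not reported here. Genes outside this rule were named after their values were seen: the kinases, myosin, calcineurin and targeting genes given as not called, Ppp1r3d, Tmem119, Col1a2, Col3a1, and the neighbours at 5 CPM. Overlaps, shared 50-base stretches and pooled exonic bases come from GENCODE M21 (GRCm38), which no fit used. Alternatives were RLE, upper-quartile and library-total scaling, no filter, a minimum mean count of 50, the replicate number as a block, DESeq2 1.42.0, limma-voom (limma 3.58.1) and each library left out.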

Additional observations from a re-analysis of the deposited data

How the results depend on the processing

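The log2 fold change of Ppp1r14c stayed between 2.79 and 2.81 under the 8 alternatives with all libraries and between 2.74 and 2.86 with 1 library left out. Members called higher went from 2 to 1 with library totals and with DESeq2, and to 1 in each fit with 1 library left out. Members called lower went from 1 to 0 with a mean count of at least 50 and with DESeq2, and ranged from 0 to 1 with 1 library left out. The cause was not tested. Lhx2 was lower and called under all 8 alternatives with all libraries (-0.32 to -0.30) and ranged from -0.38 to -0.25 with 1 library left out. Genes called over the table ranged from 2170 to 2879 with all libraries, against 2758, and from 1633 to 2396 with 1 left out. Pathway genes called were 14 to 16 and 12 to 14. Of the 46 called genes outside the members that the naming rule takes, 1 (Ppp1r8) lost its call with all libraries (under DESeq2) and 13 with some library left out, where the lone library of a group is assumed to vary like the others. No called gene among those named reversed. Of the members not called, Ppp1r1b (0.03) changed sign without control 2 (-0.12) and without Lhx2 cKO 2 (-0.065), and Ppp1cb (0.01) without control 1 (-0.006) and without Lhx2 cKO 1 (-0.012). Of 168 list medians recomputed, 25 moved further than 1 SD between replicates. Medians of 3 lists changed sign with 1 library left out: the kinases without control 2 (-0.006), and without control 1 the neuron markers (-0.01) and the smooth muscle and pericyte markers (-0.083). The labels do not say whether same-numbered libraries share more than a number. The deviations of same-numbered libraries correlated at 0.002 over the genes tested. With 1 pair of libraries per group, this value cannot show that they share no litter or batch. Fitting the replicate block gave 2874 calls, 2736 of which were also made without it, and it changed no call among the 8 members.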
